A study of Mus musculus with 14 samples.

Results

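The chemokine genes of myeloid cells followed here were Ccl2, Ccl3, Ccl4, Ccl6, Ccl9, Ccl22, Cxcl1, Cxcl2, Cxcl10 and Cxcl16, found by their symbols in RNA-seq of mouse acute myeloid leukaemia cells. Of these 10 genes, 8 were listed among the 13406 genes of the doxycycline experiment and 6 among the 14563 genes of the Id2 experiment, and the same 6 were in both. Ccl22 and Cxcl1 were listed in neither table, and Cxcl2 and Cxcl16 were not listed in the Id2 table. Every gene in either table had over 1 CPM (a read count scaled to a common library size) in at least 2 libraries by library total. The tables thus carry a filter on low genes, and no value is given for a gene that is not listed. A gene under 1 CPM in all libraries of 1 group is listed through the other group alone, so its direction was largely set by its listing.

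Chemokines are small secreted proteins that attract leukocytes by binding G protein-coupled receptors on their surface. Those of the CC class, named Ccl, mostly act on monocytes, macrophages and lymphocytes, whereas Cxcl1 and Cxcl2 attract neutrophils through Cxcr2 and Cxcl10 attracts activated T cells through Cxcr3. Monocytes, macrophages and granulocytes are themselves a main source of many of them, and transcription of several is switched on by inflammatory signals through NF-kB or interferon-activated factors.

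All 14 libraries came from primary leukaemias of C57/BL6 background driven by Tet-Off MLL-AF9, an oncogenic fusion protein whose expression stops when doxycycline is given, linked to a dsRED reporter, together with oncogenic NRASG12D and the Tet-Off activator on another retroviral vector. The vectors had been put into foetal liver cells that reconstituted lethally irradiated mice, and leukaemic spleens were the source of the cells. Doxycycline cells (n = 4) had been kept with the drug in vitro for 4 days, and untreated cells (n = 4) had not received it. Id2-GFP cells (n = 3) carried a retroviral vector for Id2, an inhibitor of basic helix-loop-helix transcription factors, and control-GFP cells (n = 3) carried the control-GFP vector, and GFP-positive cells of both were sorted 2 days after transduction. All groups carried the MLL-AF9 and NRASG12D vectors, and none received doxycycline without the MLL-AF9 switch, so the drug and the loss of MLL-AF9 cannot be told apart. The labels do not say whether untreated cells were also in culture for 4 days, so in every doxycycline comparison time in culture cannot be told apart from these either. The labels do not say that replicates came from separate animals, so p-values measure the spread between these samples, which may be technical in part.

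The doxycycline experiment held 17922644 to 25959766 reads on listed genes in a library, and the Id2 experiment 14051150 to 14948487. The labels held: Mll1 averaged 128 ± 13.2 CPM in doxycycline cells and 3901 ± 1931 CPM in untreated cells (SD, n = 4 each), Mllt3 averaged 5.88 ± 0.665 CPM in doxycycline cells and 489 ± 255 CPM in untreated cells, and Id2 averaged 1283 ± 340 CPM in Id2-GFP cells and 36.2 ± 13.6 CPM in control-GFP cells (SD, n = 3 each). Of the other cell types that a spleen could add, the T and NK cell markers Cd3d, Cd3e, Cd3g and Cd8a and the B cell markers Ms4a1 and Pax5 were listed in neither table, while Lck and Nkg7 of T and NK cells and Ighm and Cd79b of B cells were listed in both. In these bulk samples, fewer cells of a type and less RNA per cell cannot be told apart.

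The promoters of 7 of the 10 genes were found in RefSeq (build GRCm38.p6), as windows from 250 bases before to 50 bases after the start of the gene. Shown are Cxcl2 and Ccl6, which rose most in doxycycline cells, Ccl9, the neighbour of Ccl6 and the most abundant member in CPM, Ccl3, and Cxcl10, the listed member that did not rise. They lie at chr5:90903649-90903948 (plus strand), chr11:83593038-83593337, chr11:83578587-83578886, chr11:83649329-83649628 and chr5:92348840-92349139 (the last 4 on the minus strand), and all are written in the direction of transcription. Capitals mark matches, on either strand, to the kappaB consensus of NF-kB, to the interferon-stimulated response element TTTCNNTTTC, to the gamma-activated site TTCNNNGAA or to the AP-1 site TGANTCA.
Cxcl2: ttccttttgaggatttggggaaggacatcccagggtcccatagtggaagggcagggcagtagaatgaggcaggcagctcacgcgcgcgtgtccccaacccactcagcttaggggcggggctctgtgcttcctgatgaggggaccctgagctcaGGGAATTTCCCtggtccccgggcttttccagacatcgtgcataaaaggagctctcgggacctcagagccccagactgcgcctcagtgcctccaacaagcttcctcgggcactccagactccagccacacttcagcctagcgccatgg
Ccl6: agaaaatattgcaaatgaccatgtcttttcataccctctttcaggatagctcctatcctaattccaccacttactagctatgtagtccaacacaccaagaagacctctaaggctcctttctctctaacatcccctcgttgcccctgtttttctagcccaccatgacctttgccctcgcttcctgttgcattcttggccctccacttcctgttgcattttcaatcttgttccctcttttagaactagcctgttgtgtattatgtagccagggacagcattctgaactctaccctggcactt
Ccl9: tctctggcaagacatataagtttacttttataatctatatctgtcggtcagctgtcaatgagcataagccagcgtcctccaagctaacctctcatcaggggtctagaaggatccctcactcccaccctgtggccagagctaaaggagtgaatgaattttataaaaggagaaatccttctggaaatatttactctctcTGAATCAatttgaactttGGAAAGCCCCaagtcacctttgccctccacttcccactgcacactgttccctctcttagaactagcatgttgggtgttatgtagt
Ccl3: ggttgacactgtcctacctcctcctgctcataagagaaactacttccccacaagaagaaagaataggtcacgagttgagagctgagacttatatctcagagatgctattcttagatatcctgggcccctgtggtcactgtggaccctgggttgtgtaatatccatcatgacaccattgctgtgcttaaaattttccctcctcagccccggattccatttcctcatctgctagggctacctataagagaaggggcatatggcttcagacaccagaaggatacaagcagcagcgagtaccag
Cxcl10: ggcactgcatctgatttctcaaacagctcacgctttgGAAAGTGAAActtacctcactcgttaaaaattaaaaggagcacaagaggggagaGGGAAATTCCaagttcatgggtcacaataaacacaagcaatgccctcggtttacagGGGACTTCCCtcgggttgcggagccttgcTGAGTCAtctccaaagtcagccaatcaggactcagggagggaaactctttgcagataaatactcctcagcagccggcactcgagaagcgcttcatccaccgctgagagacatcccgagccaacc

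A kappaB match was present in 4 of the 7 promoters (Cxcl1, Cxcl2, Cxcl10 and Ccl9), against 4.51% of 32851 mouse promoters of the same length. The capitals in the Cxcl2 promoter are a pair of overlapping kappaB matches, from 97 to 87 bases before the start, and Cxcl1 holds the same pair from 71 to 61 bases before its start. The Cxcl10 promoter held 2 kappaB matches apart from each other, an interferon-stimulated response element (in 3.44% of all promoters) and an AP-1 match (7.81%). The Ccl9 promoter held 1 kappaB and 1 AP-1 match, while Ccl3, Ccl6 and Ccl22 held a match to none of the motifs, and the gamma-activated site (8.30% of promoters) was found in none of the 7. These are matches of letters in a window and no measurement of binding.

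In doxycycline cells 7 of the 8 listed chemokines rose and none fell, at an adjusted p under 0.05 in limma. Over all genes of the table, 31.3% rose and 33.8% fell. The libraries of both groups did not overlap for the same 7 genes, all higher in doxycycline cells, against 28.9% of all genes. The median difference of the 8 listed members was 2.42 on the log2 CPM scale, beside −0.03 over all genes. Cxcl2 had under 1 CPM in every untreated library, so it was listed through doxycycline libraries alone. It could hardly enter these counts and this median other than by a rise. Summed over the 8 genes, chemokine mRNA came to between 2406 and 3119 CPM in doxycycline libraries and between 835 and 1054 CPM in untreated libraries. These counts stand beside a wide change in maturation genes: the macrophage and monocyte list (11 of 13 genes listed) summed to between 5242 and 6020 CPM in doxycycline libraries and to between 1652 and 2009 CPM in untreated libraries, and its part in the chemokine result was not tested.

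**Figure D1:**
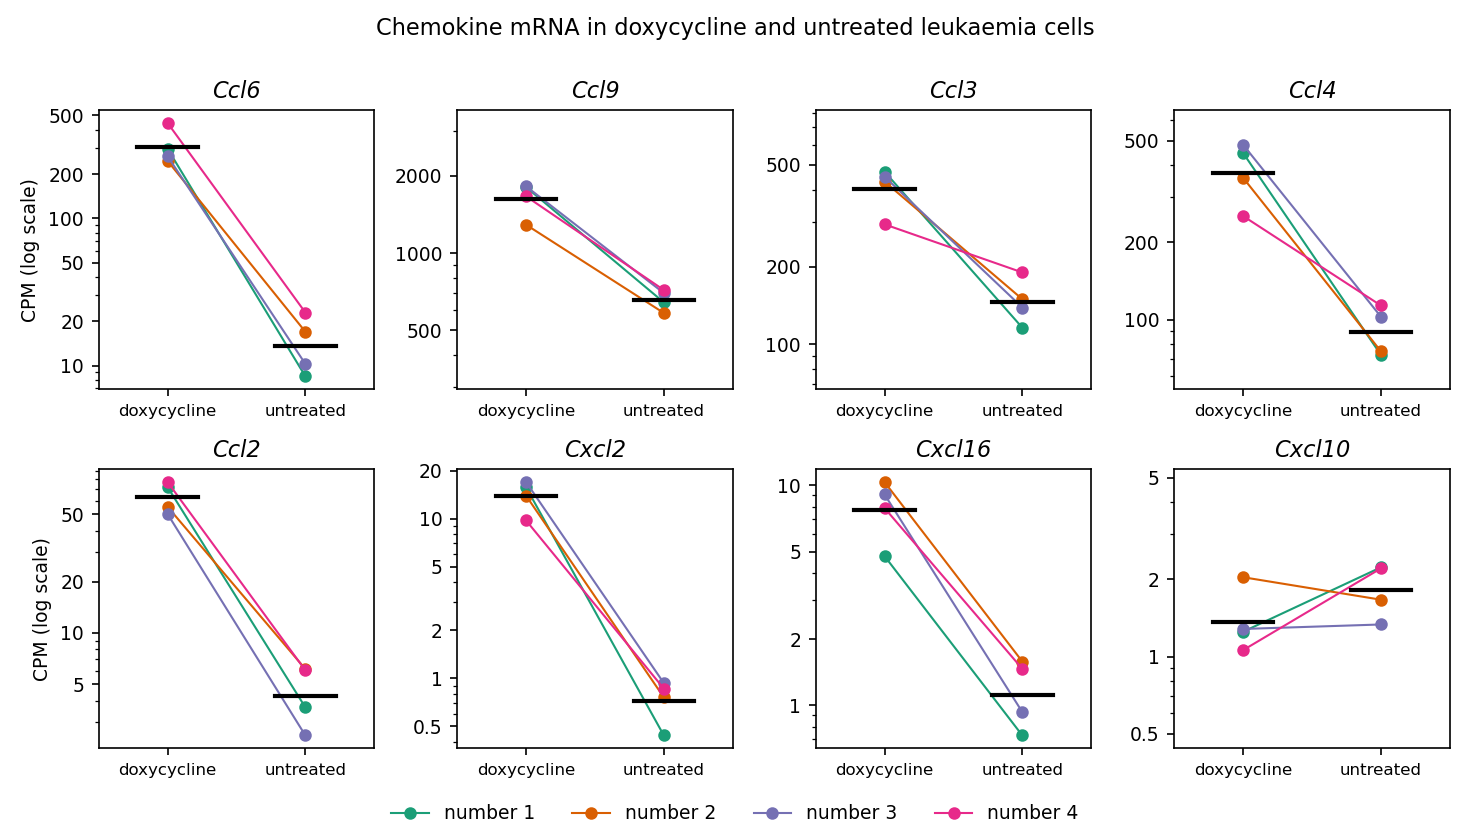
Level of each listed chemokine in the 4 doxycycline (left) and 4 untreated (right) libraries, in CPM on a log axis with its own range in each panel; lines join libraries with the same number in their titles and black bars are means of the log values. The groups are apart for 7 genes, with Ccl6 between 246 and 445 CPM in doxycycline cells and between 8.44 and 22.9 CPM in untreated cells, and they overlap for Cxcl10.

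Ccl6 and Ccl9 are CC chemokines found in rodents that act through Ccr1 and are made by myeloid cells. Ccl6 had 297, 246, 264 and 445 CPM in doxycycline libraries 1 to 4, against 8.44, 17.0, 10.2 and 22.9 CPM in untreated libraries 1 to 4. The lowest doxycycline library was more than 10 times the highest untreated one. Ccl6 was 22.5-fold higher in doxycycline cells (log2 difference 4.49 ± 0.31 SE, adjusted p = 2.0e-06 in limma). Ccl9 had 1809, 1291, 1822 and 1665 CPM in doxycycline libraries, against 642, 583, 698 and 717 CPM in untreated libraries. It was already abundant without the drug, and it rose 2.48-fold (1.31 ± 0.12, adjusted p = 9.6e-06). The start of Ccl9 and the end of Ccl6 are 9245 bases apart on chromosome 11. The log2 ratio of Ccl6 to Ccl9 was −2.61, −2.39, −2.79 and −1.91 in doxycycline libraries and −6.25, −5.10, −6.09 and −4.97 in untreated libraries. Thus the neighbours rose by unequal amounts in each pair, and the share of the members' summed CPM held by Ccl6 was 8.53% to 16.1% in doxycycline libraries and 0.997% to 2.17% in untreated libraries.

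Ccl3 and Ccl4, the macrophage inflammatory proteins 1-alpha and 1-beta, attract monocytes and T cells, and Ccl3 binds Ccr1. Ccl3 had 471, 431, 450 and 293 CPM in doxycycline libraries, against 116, 150, 139 and 190 CPM in untreated libraries. Ccl4 had 447, 358, 482 and 254 CPM in doxycycline libraries, against 72.9, 75.3, 103 and 114 CPM in untreated libraries. Doxycycline library 4 was the lowest and untreated library 4 the highest of its group for both genes. Ccl3 rose 2.77-fold (1.47 ± 0.18, adjusted p = 6.5e-05) and Ccl4 rose 4.18-fold (2.06 ± 0.21, adjusted p = 2.4e-05). They lie head to head on opposite strands of chromosome 11, 13228 bases apart. The log2 ratio of Ccl4 to Ccl3 ran from −0.27 to 0.10 in doxycycline libraries and from −0.99 to −0.43 in untreated libraries, without overlap.

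Ccl2, the monocyte chemoattractant protein 1, recruits monocytes through Ccr2. It had 72.2, 55.3, 50.1 and 77.2 CPM in doxycycline libraries, against 3.65, 6.13, 2.49 and 6.02 CPM in untreated libraries. The groups were far apart, and Ccl2 rose 14.6-fold (3.87 ± 0.28, adjusted p = 2.7e-06).

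Cxcl2, a neutrophil attractant, was among the lowest members without the drug. It had 15.7, 13.9, 17.0 and 9.75 CPM in doxycycline libraries (308, 283, 284 and 225 reads), against 0.438, 0.758, 0.932 and 0.860 CPM in untreated libraries (10, 17, 18 and 18 reads). It rose 19.2-fold (4.26 ± 0.26, adjusted p = 1.2e-06). From 1100 reads in doxycycline cells and 63 in untreated cells, the ratio per scaled depth was 19.3, with an exact 95% interval of 15.0 to 25.3 for counting error alone.

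Cxcl16 is made as a membrane-bound protein with a chemokine domain and is released by the protease Adam10. Cxcl16 had 4.77, 10.4, 9.09 and 7.89 CPM in doxycycline libraries (93, 210, 152 and 182 reads), against 0.729, 1.58, 0.932 and 1.46 CPM in untreated libraries (17, 36, 18 and 31 reads). Every doxycycline library was above every untreated one, and Cxcl16 rose 6.89-fold (2.78 ± 0.31, adjusted p = 3.7e-05). Its exons overlap those of Zmynd15 on the other strand by 552 bases, and strand was not stated for these counts, so reads there cannot be told apart. Zmynd15 was listed in neither table.

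Cxcl10, the interferon-induced attractant of T cells, stood apart from the other listed members. It had 1.25, 2.04, 1.28 and 1.06 CPM in doxycycline libraries (24, 41, 21 and 24 reads), against 2.23, 1.67, 1.34 and 2.21 CPM in untreated libraries (53, 38, 26 and 47 reads). From 110 reads in doxycycline cells and 164 in untreated cells, the ratio per scaled depth was 0.743. Its exact 95% interval for counting error alone, without the spread between libraries, was 0.578 to 0.952. The groups overlapped, and the log2 difference was −0.42 ± 0.26 with a 95% interval of −0.99 to 0.16 (adjusted p = 0.181 in limma). Its upper bound lay below the lower bound of each of the other 7 members, which ranged from 1.05 for Ccl9 to 3.80 for Ccl6. The call depends on the scaling and on 1 library: the adjusted p of a fall was 0.0485 with library totals and 0.0479 without doxycycline library 2. Cxcl10 exons overlap those of Art3 on the other strand by 133 bases, and Art3 was listed in neither table.

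Per kilobase of annotated exons, the members fell into tiers. The length joins the exons of all annotated transcripts. For Cxcl2 (2068 bases) and Cxcl10 (2252 bases) it covers the whole gene from start to end, but not for Ccl3 (766 bases) or Ccl4 (660 bases). A longer joined length lowers the level, so the order of the members rests in part on the annotation. In doxycycline cells Ccl4 averaged 584 ± 155, Ccl9 541 ± 81.4 and Ccl3 537 ± 105 CPM per kilobase (SD, n = 4), and these 3 levels did not differ beyond their spread. Ccl6 followed at 174 ± 50.3 and Ccl2 at 56.0 ± 11.5 CPM per kilobase, and Cxcl2 (6.82 ± 1.52), Cxcl16 (2.66 ± 0.792) and Cxcl10 (0.625 ± 0.192) were lowest. In untreated cells Ccl9 (217 ± 19.8) and Ccl3 (194 ± 40.7) overlapped in their spread, Ccl4 came next at 138 ± 30.5, and all other members averaged under 10 CPM per kilobase. There Ccl6 averaged 8.15 ± 3.69 and Ccl2 4.02 ± 1.58 CPM per kilobase, while Cxcl10 (0.826 ± 0.194) was above Cxcl16 (0.389 ± 0.136) and Cxcl2 (0.361 ± 0.105). By this measure Cxcl2 was last in untreated cells and sixth of the 8 in doxycycline cells.

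The 4 doxycycline and untreated libraries share pair labels in their titles, and the size of the rise varied among pairs. For Ccl3 the log2 differences of pairs 1 to 4 were 2.02, 1.53, 1.70 and 0.62, and for Ccl4 they were 2.62, 2.25, 2.23 and 1.16. For Cxcl2 they were 5.17, 4.2, 4.19 and 3.50. Pair 4 thus gave the smallest difference for these 3 genes. For Ccl2 the differences were 4.31, 3.17, 4.33 and 3.68, and for Ccl6 they were 5.14, 3.86, 4.69 and 4.28, where pair 2 was the smallest and doxycycline library 4 held the highest level of its group. Differences of Ccl9 (1.5, 1.15, 1.38 and 1.22) and Cxcl16 (2.71, 2.71, 3.29 and 2.43) varied less, and those of Cxcl10 (−0.84, 0.29, −0.06 and −1.06) had no common sign. Pair 4 is also the pair whose titles carry the tag TRIMA1, where the other 3 carry TRIMA2, and the labels do not explain the tags. The titles of doxycycline libraries 1, 2 and 4, and of no untreated library, also end in an unexplained R, which in those pairs cannot be told apart from the drug. In pair 3, which lacks it, the 7 members that rose were higher by between 1.38 for Ccl9 and 4.69 for Ccl6. Without both libraries of pair 4, the log2 difference was 1.75 for Ccl3 and 2.37 for Ccl4.

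**Figure D2:**
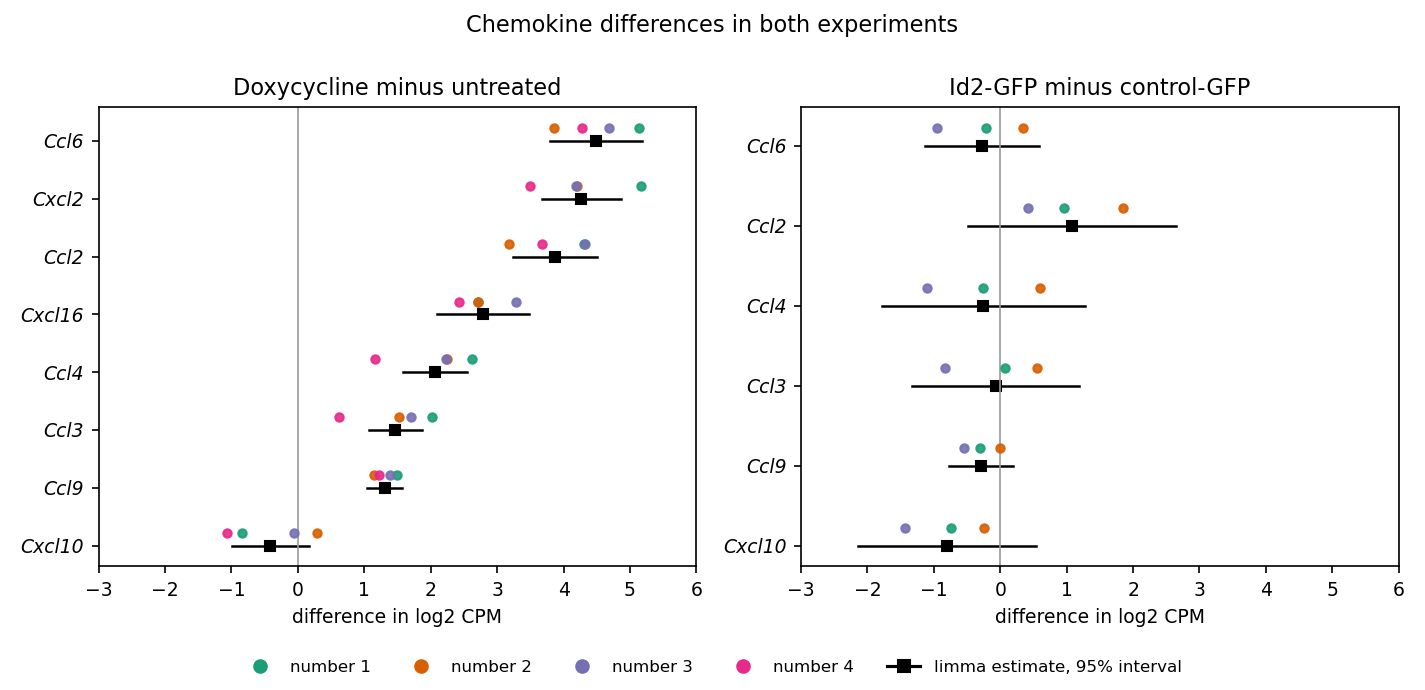
Differences in log2 CPM for each listed chemokine, doxycycline minus untreated (left) and Id2-GFP minus control-GFP (right); squares with lines are limma estimates with 95% intervals and coloured dots are the differences between libraries of the same number. On the left 7 intervals lie above 0, from Ccl9 (1.31) to Ccl6 (4.49), and on the right all 6 intervals include 0.

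Of 28 other chemokine ligands, 6 were listed in the doxycycline table. Of these, 4 passed, all upward, where 31.3% of all genes rose. Cxcl3 and Ccl7, counted here, had under 1 CPM in every untreated library. They were listed through doxycycline libraries alone and could hardly be seen to fall. Cxcl3, a neutrophil attractant on chromosome 5 like Cxcl2, had 68, 43, 56 and 34 reads in doxycycline libraries and 3, 3, 6 and 2 reads in untreated libraries. Its log2 difference was 3.86 ± 0.41 (adjusted p = 2.7e-05), and the ratio per scaled depth over all reads was 15.9, with a counting interval of 9.26 to 29.6. Cxcl1, Cxcl2 and Cxcl3 are close paralogs, and how reads matching several of them were counted is not stated in the sources used here. Ccl7, a monocyte attractant beside Ccl2, rose by 2.74 ± 0.24 (adjusted p = 8.8e-06). Pf4, a platelet chemokine, rose by 0.94 ± 0.28 (adjusted p = 0.0135) with overlapping libraries, and its adjusted p was 0.0612 without both libraries of pair 3. Cx3cl1, the membrane-bound fractalkine, passed at 0.41 ± 0.16 (adjusted p = 0.044) with overlapping libraries, but missed with the pair as a block (adjusted p = 0.0557), and its adjusted p reached 0.344 with library totals. Cxcl14 and Ccl25 did not pass, and Ccl5, Cxcl9, Cxcl11 and Cxcl12 were among the 22 not listed.

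Of 23 chemokine receptors, 8 were listed, 5 rose and none fell, where 31.3% of all genes rose and 33.8% fell. With the pair as a block 7 rose, where 4498 of 13406 genes did. Both counts hold Cxcr3, which had under 1 CPM in every untreated library and was listed through doxycycline libraries alone. Ccr1, the receptor of Ccl3, Ccl6 and Ccl9, averaged 226 ± 18.7 CPM in doxycycline cells and 38.2 ± 9.44 CPM in untreated cells (SD, n = 4 each). Ccr1 rose by 2.60 ± 0.16 (adjusted p = 1.1e-06). Cxcr2, the receptor of Cxcl2 and Cxcl3, averaged 61.5 CPM in doxycycline cells and 30.2 CPM in untreated cells and rose by 1.01 ± 0.17 (adjusted p = 5.0e-04). Cx3cr1, the fractalkine receptor of monocytes, averaged 216 CPM in doxycycline cells and 77.4 CPM in untreated cells and rose by 1.52 ± 0.23 (adjusted p = 3.2e-04). Cxcr3, the receptor of Cxcl10, was near the detection limit, at 111 reads in all doxycycline libraries and 11 in all untreated libraries, and rose by 3.23 ± 0.37 (adjusted p = 4.8e-05). The ratio of Cxcr3 reads per scaled depth was 11.2, with a counting interval of 6.01 to 23.0.

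Ccr2 and Cxcr4 did not pass without the pairing. Ccr2, the receptor of Ccl2, had a log2 difference of 0.35 ± 0.31 (adjusted p = 0.345, and 0.0345 with the pair as a block). Cxcr4, the receptor of Cxcl12, had a difference of 0.22 ± 0.10 (adjusted p = 0.076, and 0.0365 with the block) and of −0.02 with library totals. Ccrl2, an atypical chemokine receptor, passed at 1.96 ± 0.72 (adjusted p = 0.0367). Its libraries overlapped, since untreated library 2 stood far above the other untreated ones, and its adjusted p ran from 3.4e-05 to 0.127 over the alternatives. Cxcr6, the receptor of Cxcl16, was not listed in either table.

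**Figure D3:**
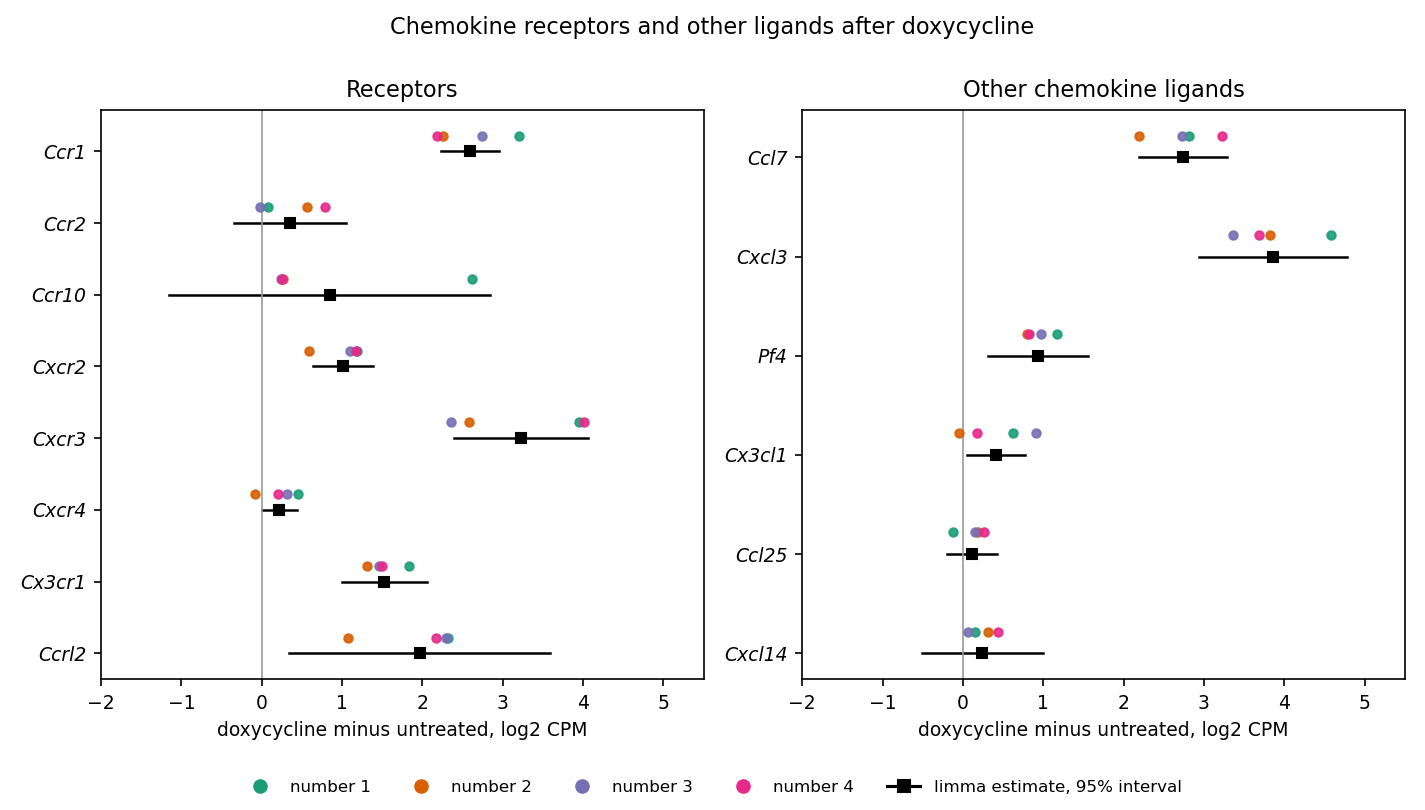
Differences in log2 CPM between doxycycline and untreated cells for the 8 listed chemokine receptors (left) and the 6 other listed chemokine ligands (right); squares with lines are limma estimates with 95% intervals and dots are the pairs. Ccr1 (2.60) and Cxcr3 (3.23) lie far above 0, as do Ccl7 (2.74) and Cxcl3 (3.86), while the intervals of Ccr2, Ccr10 and Cxcr4 on the left include 0.

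Genes upstream of chemokine transcription rose in part, where over all genes 31.3% rose and 33.8% fell. Of the listed inducing cytokines and their receptors, 10 of 13 rose (median 1.26) and Il1r1 fell. Tnf averaged 56.7 ± 8.78 CPM in doxycycline cells and 13.7 ± 1.75 CPM in untreated cells (2.05 ± 0.12, adjusted p = 1.1e-06), and the TNF receptor Tnfrsf1b rose by 2.04. Il6, Ifng, Ifnb1 and Csf2 were not listed. Of 23 genes of Toll-like receptor and NF-kB signalling, 18 rose (median 0.44) and Nfkb1, which encodes the p50 subunit, fell by 0.35. Tlr2, which senses bacterial lipoproteins, rose by 1.82, the kinase Irak2 by 1.47, the NF-kB subunit Relb by 1.38 and the inhibitor Nfkbia, itself an NF-kB target, by 0.79. With library totals the count in this list was 12 up and 5 down, where 2702 of 13406 genes rose and 6912 fell.

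Against 31.3% of all genes, 11 of 15 interferon signalling genes rose, with a median of 0.48 over the list, while Cxcl10 did not. The transcription factors Irf1 (0.50), Irf9 (0.48) and Stat2 (0.46) and the effector Isg15 (1.06) were among them. With library totals 9 rose and 1 fell, where 2702 of 13406 genes rose and 6912 fell. Against 31.3% of all genes, 9 of the 10 immediate early genes, which cells switch on within minutes of stimulation or handling, rose (median 1.90). Their summed level was between 420 and 712 CPM in doxycycline libraries and between 192 and 222 CPM in untreated libraries, and its part in the chemokine result was not tested.

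Several chemokine mRNAs are short-lived because of AU-rich elements, and the mRNAs of some proteins that act on mRNA stability were measured. Of 10 genes listed, 4 rose (the decay factors Zfp36l1, Zfp36, Zc3h12a and Zfp36l2) and 5 fell, where 31.3% of all genes rose and 33.8% fell. Zfp36, or tristetraprolin, averaged 140 ± 32.8 CPM in doxycycline cells and 43.7 ± 3.86 CPM in untreated cells (1.66 ± 0.15, adjusted p = 9.1e-06), and Zfp36l1 rose by 2.27. Those that fell were Hnrnpd (−0.48), Elavl1 (−0.40), Khsrp (−0.38), Cnot1 (−0.30) and Cnot6 (−0.20), of which the stabilising protein Elavl1 and the deadenylase subunit Cnot1 act in opposite directions.

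Of 9 proteases that trim or shed chemokines, 6 rose and Adam17 fell (−0.31), where 31.3% of all genes rose and 33.8% fell. Mmp2, among those that rose, had under 1 CPM in every untreated library and was listed through doxycycline libraries alone. Mmp9, or gelatinase B, averaged 1023 ± 359 CPM in doxycycline cells and 36.7 ± 25.5 CPM in untreated cells (4.96 ± 0.45, adjusted p = 1.1e-05), and the neutrophil collagenase Mmp8 rose by 3.59. Adam10, which sheds Cxcl16, had a difference of −0.09 ± 0.07 (adjusted p = 0.285).

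Cell type markers moved in the same libraries, where 31.3% of all genes rose and 33.8% fell. Of the listed monocyte and macrophage markers 10 of 11 rose (median 2.06). Of the neutrophil markers 9 of 13 rose while Elane, Ctsg and Prtn3, which are genes of immature granules, fell. Mpo, another such gene on the list, was not among those that fell. Ly6g, among those that rose, had under 1 CPM in every untreated library and was listed through doxycycline libraries alone. The neutrophil list summed to between 5355 and 11076 CPM in doxycycline libraries and to between 2718 and 4332 CPM in untreated libraries. The 2 listed T and NK cell markers of 12, Lck and Nkg7, summed to between 0.303 and 1.19 CPM in doxycycline libraries and to between 1.26 and 2.52 CPM in untreated libraries. Each had under 1 CPM in every doxycycline library and was listed through untreated libraries alone. Stromal and endothelial markers, 2 listed of 10, summed to between 76.5 and 111 CPM in doxycycline libraries and to between 293 and 320 CPM in untreated libraries, with Col1a1 and Cdh5 not listed. Most of this sum was Pecam1, at 75.8 CPM in doxycycline cells and 251 CPM in untreated cells. The other gene was Pdgfrb, at 16.7 CPM in doxycycline cells and 56.1 CPM in untreated cells. Erythroid and platelet markers, 4 listed of 10, summed to between 7.19 and 14.5 CPM in doxycycline libraries and to between 23.6 and 49.2 CPM in untreated libraries. Most of that sum was the platelet integrin gene Itga2b, at 6.51 CPM in doxycycline cells and 30.0 CPM in untreated cells. Itga2b and Gp9 fell, Pf4 rose (0.94) and Gp1ba did not pass (−0.05). Gp9 had under 1 CPM in every doxycycline library and was listed through untreated libraries alone. B cell markers, 2 listed of 7, summed to between 257 and 344 CPM in doxycycline libraries and to between 275 and 473 CPM in untreated libraries. Ighm, the heavy chain of IgM, averaged 272 CPM in doxycycline cells and 328 CPM in untreated cells, Cd79b averaged 14.8 CPM in doxycycline cells and 18.4 CPM in untreated cells, and neither passed. The part of these cell types in the chemokine result was not tested.

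Over the 8 libraries, the genes outside the list whose log2 CPM most resembled the mean of the members' standardized levels were Plau (Pearson r = 0.996), Atp6v0d2 (0.994), Rbpj (0.994), Rcor3 (0.993) and Hpse (0.993). Plau encodes urokinase, Atp6v0d2 a proton pump subunit, Rbpj the DNA-binding effector of Notch, Rcor3 a corepressor and Hpse heparanase. The 8 points share the split into doxycycline and untreated libraries, so these values mostly describe that split.

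In Id2-GFP cells none of the 6 listed chemokines passed in either direction (smallest unadjusted p = 0.15 in limma), and all 6 had overlapping libraries. The share of all genes with overlapping libraries is not given for this experiment, so the overlap is no result about these 6. Over all genes, 0.0137% rose and 0% fell, 2.45% had an unadjusted p under 0.05, and 0.24% passed with the replicate number as a block, where again no member passed. The median difference of the 6 members was −0.27, beside −0.03 over all genes. The genes that passed were Id2 itself, which the vector carries, and Gm6175, named here only because it completed the count of 2. Id2 was 36.2-fold higher in Id2-GFP cells (adjusted p = 0.00264, and 0.125 without Id2-GFP library 1), and 3.16-fold higher in doxycycline cells than in untreated cells (86.5 ± 5.92 and 27.7 ± 5.32 CPM).

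**Figure D4:**
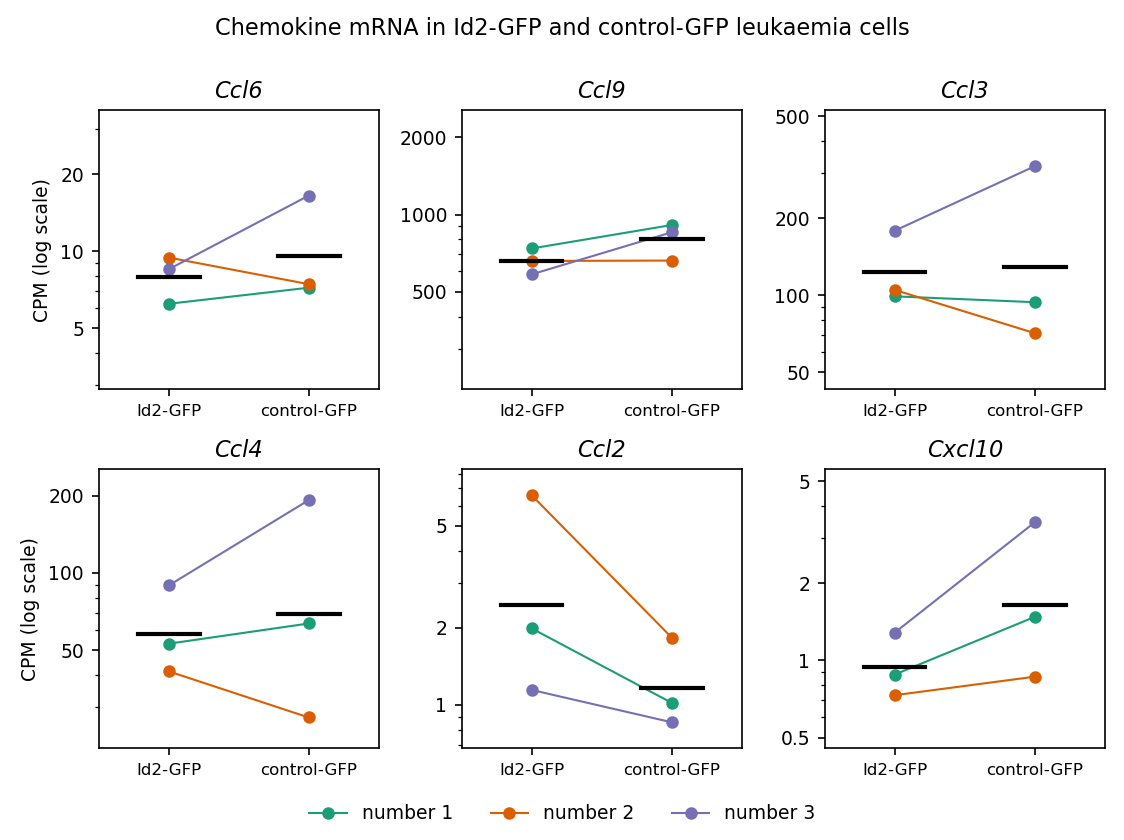
Level of each listed chemokine in the 3 Id2-GFP (left) and 3 control-GFP (right) libraries, in CPM on a log axis with its own range in each panel; lines join libraries of the same replicate number and black bars are means of the log values. The groups overlap for all 6 genes, and control-GFP library 3 is the highest of the 6 libraries for Ccl3 (319 CPM), Ccl4 (192 CPM), Ccl6 (16.5 CPM) and Cxcl10 (3.46 CPM).

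Ccl2 had 1.99, 6.58 and 1.14 CPM in Id2-GFP libraries 1 to 3, against 1.02, 1.83 and 0.856 CPM in control-GFP libraries 1 to 3. It was higher with Id2 in all 3 pairs (0.97, 1.85 and 0.42), yet the 95% interval of the difference of 1.08 ± 0.67 ran from −0.49 to 2.64. Cxcl10 had 0.881, 0.732 and 1.28 CPM in Id2-GFP libraries, against 1.48, 0.864 and 3.46 CPM in control-GFP libraries, a difference of −0.81 ± 0.57 (−2.15 to 0.53). It was lower with Id2 in all 3 pairs (−0.75, −0.24 and −1.43), the opposite order to Ccl2. Without the pairing neither difference exceeded the spread between replicates. With the replicate number as a block the standard error was 0.38 for Ccl2 (unadjusted p = 0.019, adjusted p = 0.594 in limma) and 0.40 for Cxcl10 (unadjusted p = 0.0705, adjusted p = 0.844), so that within pairs Ccl2 differed before adjustment over all genes but not after it.

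Ccl9, the most abundant member here too, had 737, 659 and 584 CPM in Id2-GFP libraries, against 910, 661 and 853 CPM in control-GFP libraries (−0.28 ± 0.21, interval −0.77 to 0.20). Ccl6 had 6.23, 9.44 and 8.50 CPM in Id2-GFP libraries, against 7.20, 7.43 and 16.5 CPM in control-GFP libraries (−0.27 ± 0.37, interval −1.14 to 0.59). For both genes the upper bound was far from the size of the rise in doxycycline cells (1.31 for Ccl9 and 4.49 for Ccl6). This was not so for every member. For Ccl3 the upper bound with Id2 (1.19) lay above the lower bound in doxycycline cells (1.07), and for Ccl4 these bounds were 1.27 and 1.58. The doxycycline values came from another experiment, after 4 days and not 2, and no test was made across the 2 experiments.

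Ccl3 had 99.0, 105 and 179 CPM in Id2-GFP libraries, against 93.9, 71.1 and 319 CPM in control-GFP libraries (−0.07 ± 0.54, interval −1.33 to 1.19). Ccl4 had 52.9, 41.3 and 89.3 CPM in Id2-GFP libraries, against 63.5, 27.3 and 192 CPM in control-GFP libraries (−0.26 ± 0.66, interval −1.79 to 1.27). The pair numbered 3 was the highest in both groups for both genes, and the sign of several differences turned on single libraries. Without control-GFP library 3 the difference was 0.59 for Ccl3, 0.48 for Ccl4, 0.12 for Ccl6 and −0.27 for Cxcl10, and that of Ccl3 was also above 0 without Id2-GFP library 1 (0.0891) or 2 (0.0473). In control-GFP library 3 the interferon list summed to 842 CPM, against 508 to 724 CPM in Id2-GFP libraries and 510.4 and 541 CPM in the other control-GFP libraries, and the immediate early list to 326 CPM, against 206 to 239 CPM in Id2-GFP libraries and 213 and 235 CPM in the other control-GFP libraries. Several cell type lists stood apart there as well. The B cell list summed to 825 CPM in control-GFP library 3, against 137 to 292 CPM in Id2-GFP libraries and 377 and 438 CPM in the other control-GFP libraries. The erythroid and platelet list summed to 110.2 CPM there, against 23.1 to 43.0 CPM in Id2-GFP libraries and 69.7 and 42.1 CPM in the others, and the T and NK cell list, under 4 CPM in each library, was also highest there. The monocyte and macrophage list was lowest of the 6 libraries there, at 1111 CPM, against 1240.0 to 1825 CPM in Id2-GFP libraries and 1394 and 1824 CPM in the others. Neutrophil markers (1273 CPM) lay within the range of the other 5 libraries, as did stromal and endothelial markers (277 CPM). The part of these lists in the chemokine levels was not tested.

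Of the 8 receptors and 3 other ligands listed in the Id2 table, none passed. Cx3cr1 averaged 27.4 CPM (20.6 to 35.2) in Id2-GFP libraries and 73.3 CPM (51.5 to 105) in control-GFP libraries. Its difference was −1.39 ± 0.31, with an adjusted p of 0.998 in limma, and of 0.0359 with the replicate number as a block. In doxycycline cells Cx3cr1 had gone the other way (1.52 ± 0.23), and the difference between the 2 experiments was not tested.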

How the data were processed

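RNA-seq of 4 doxycycline, 4 untreated, 3 Id2-GFP and 3 control-GFP libraries was used, grouped by their labels. The authors deposited 1 table of log2 values per experiment. Each value is the log2 CPM, with 0.5 added to each read count before scaling, read from the deposited values themselves: 100% came out as whole reads within 0.01 read. CPM printed here are those log2 values turned back, so they include that offset. Per the submitters' processing notes, CASAVA 1.8.2, TopHat2, HTSeq, limma and the build mm10 were used, with no role stated, and annotation and strand are not given in the sources used here. Of 13419 entries of the doxycycline table, 13 repeated an identifier and were left out.

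The log2 values were tested with limma 3.58.1 in R 4.3.3 (moderated variances with a trend, two-sided), each table alone, with Benjamini-Hochberg adjustment over all its genes and a threshold of 0.05. Fold changes are on the log2(CPM with offset) scale and understate the change of low genes. The fit was also run on simulated counts with few genes changed and no pair effect, which does not show how it behaves in these data. Deviations of same-numbered libraries from their group means correlated at 0.454 to 0.552 in the doxycycline experiment and at 0.472 to 0.581 in the Id2 experiment. Those of other numbers correlated at −0.545 to −0.0132, so the numbers, taken from the titles, pair the samples. A fit with the number as a block was an alternative, and calls given without naming the block leave this pairing out. In the Id2 experiment 2 genes passed without the block and 35 with it. Other alternatives were leaving out libraries or pairs, library totals, quantile normalization, a floor of 2 on mean log2 CPM, an offset of 2 reads and no variance trend. Counting intervals are exact at 95% and cover counting error only: these reads carry no molecular identifiers, so copies of 1 molecule count more than once.

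Exon lengths and positions came from GENCODE M21 (GRCm38, which mm10 denotes) and promoters from RefSeq. Named were the 10 members, other chemokine ligands and receptors, up to 4 members of each other list by smallest p among those that passed, the genes that completed a count of 5 or fewer (chosen after their values were seen), and the 5 genes most like the members. The members and the lists were chosen with earlier results of these data known, so no test was made over a list. Some genes of the lists are not reported here and enter no count, median or sum.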

Additional observations from a re-analysis of the deposited data

Results flagged for a closer look

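Of 44 groups of 4 libraries examined, 1 held a library far from the others. Ccrl2, the atypical chemokine receptor, had a log2 CPM of 4.97 in untreated library 2, where the other untreated libraries lay between 1.78 and 2.17, so that the gap took 0.877 of the whole range. Chance alone marks about 1 in 20 such groups. Doxycycline library 2 was the highest of its own group as well (66.2 CPM, against 16.4 to 22.0 CPM in the other doxycycline libraries), beside 31.3 CPM in untreated library 2.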

How the results depend on the processing

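The 7 chemokines that rose in doxycycline cells kept direction and call under every alternative in which they were tested, the floor on mean log2 CPM leaving 5 of them. Their largest adjusted p was 0.0016, for Ccl3, and the block changed no member's call. Ranges over the alternatives were 0.88 to 1.42 for Ccl9, 1.23 to 1.75 for Ccl3, 1.82 to 2.37 for Ccl4 and 4.25 to 4.74 for Ccl6. Library totals moved the median of all genes to −0.27, against −0.03, with 28.1% of calls upward against 48.1%, and there Ccl25 (−0.12) and Cxcr4 (−0.0199) changed sign. The replicate block ended the call of Cx3cl1, added Ccr2 and Cxcr4 in doxycycline cells and Cx3cr1 in Id2-GFP cells, and changed no other call of a ligand or receptor. Of the other ligands 2 passed without both libraries of pair 3 and 1 with the floor on mean log2 CPM, against 4.

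In the Id2 experiment the count over all genes was 2, against 35 with the replicate block, 1 with the floor and 0 to 3 with 1 library left out (0 without Id2-GFP library 1, where Id2 itself had an adjusted p of 0.125). Differences of genes that did not pass changed sign there. With 1 library left out they ran from −0.49 to 0.59 for Ccl3, −0.93 to 0.48 for Ccl4, −0.48 to 0.12 for Ccl6, −0.47 to 0.72 for Mll1, −0.65 to 0.14 for Mllt3, −0.0891 to 0.72 for Cx3cl1, −0.29 to 1.68 for Cxcl14, −0.27 to 0.34 for Ccr1, −0.11 to 0.57 for Ccr2, −0.43 to 1.98 for Ccr7, −0.44 to 0.23 for Ccrl2, −0.0024 to 0.32 for Cxcr4 and −0.22 to 0.13 for Xcr1. With library totals Ccr1 was at 0.0441 and Ccrl2 at 0.0232, and with quantile normalization Ccr1 was at 0.0157. The cause of these changes was not tested. Depth limits Cxcl2, Cxcl16 and Cxcl10 among the members and Ccl7, Cxcl3, Pf4, Ccl25, Cxcr3 and Ccr10 beside them, which had under 60 reads in each untreated library, and Ccl2 and Cxcl10 in the Id2 experiment, with 11 to 94 and 10 to 46 reads.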
